A study of Mus musculus with 18 samples.

Results

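Mast cell proteases were followed across the single-cell libraries of hematopoietic progenitors (HPs) from mouse bone marrow. The group was set by a list of 9 genes, Cma1, Mcpt1, Mcpt2, Mcpt4, Mcpt8, Tpsb2, Tpsab1, Tpsg1 and Cpa3, out of 20275 genes in the deposited count matrix. All 9 were present, and each had at least 1 UMI (a counted mRNA molecule) in each HP library. The study sorted CD45+ lineage- Kit+ cells from C57B6/J mice on embryonic days E16.5 and E18.5, at birth (P0) and in adulthood, took the fetal and newborn cells from the skeleton without the head and the adult cells from long bones, pelvis and spine, and labelled them with antibody tags (CITE-seq). There were 2 libraries from E16.5 and 1 from each other stage, and each library was a pool of mice. The cells carry no transgene or treatment, and apart from library numbers stage is the only difference the labels give. The second E16.5 library (replicate 2) has a library number apart from the others and alone carried a wide antibody panel. The labels name no batch. Cells were grouped by the study's own annotation codes. The mast codes were Mast1, Mast2i and Mast2ii at E16.5, Mast3 at E18.5, Mast3 and Mast4 at P0, and Mast4i and Mast4ii in the adult. The codes were drawn from clusters of all genes, these 9 included, so a mast code against other codes is a description and not a test. The sort also decides which cells could be seen, since it keeps Kit+ cells.

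Mast cells store preformed proteases in secretory granules, bound to serglycin proteoglycan that carries heparin, and release them when the cell degranulates. Chymases as a class cut after aromatic residues and tryptases after basic ones, and single members can differ. Carboxypeptidase A3 trims residues from the C-terminal end of peptides that other proteases have cut. Connective tissue mast cells are known for Cma1, Mcpt4, Tpsb2 and Cpa3, mucosal mast cells for Mcpt1 and Mcpt2, and Mcpt8 is known as a protease of basophils. GATA factors, Gata2 among them, are known regulators of mast cell and basophil genes.

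The genes of one protease type lie side by side. On chromosome 14 (GRCm38) 5 members span 143823 bases: Cma1 (chr14:55941451-55944675, minus strand), Mcpt1 (chr14:56017971-56020384, plus), Mcpt2 (chr14:56042041-56044642, plus), Mcpt4 (chr14:56059629-56062313, minus) and Mcpt8 (chr14:56082166-56085273, minus). The tryptases Tpsab1 (chr17:25343245-25345562, minus), Tpsb2 (chr17:25366305-25369098, plus) and Tpsg1 (chr17:25369273-25374442, plus) span 31198 bases of chromosome 17, and Cpa3 stands alone (chr3:20215620-20242181, minus). Tpsab1 is protein coding in GENCODE and a transcribed pseudogene in RefSeq. The promoters of Cma1, Mcpt4, Cpa3 and Mcpt8 are shown because the levels of these 4 genes set mast and basophil codes apart in what follows. Each runs from 250 bases before to 50 after the start of the curated RefSeq transcript (GRCm38.p6, 5′ to 3′ on the gene's strand), with GATA words in capitals (AGATAA or AGATAG, and TGATAA or TGATAG, on either strand).
Cma1, chr14:55944626-55944925, minus strand: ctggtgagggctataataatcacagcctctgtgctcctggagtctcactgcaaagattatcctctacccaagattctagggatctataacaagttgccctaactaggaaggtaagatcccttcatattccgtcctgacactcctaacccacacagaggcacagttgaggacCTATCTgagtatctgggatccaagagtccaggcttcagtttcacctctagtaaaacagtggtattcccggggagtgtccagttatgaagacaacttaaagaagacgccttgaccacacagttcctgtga
Mcpt4, chr14:56062261-56062560, minus strand: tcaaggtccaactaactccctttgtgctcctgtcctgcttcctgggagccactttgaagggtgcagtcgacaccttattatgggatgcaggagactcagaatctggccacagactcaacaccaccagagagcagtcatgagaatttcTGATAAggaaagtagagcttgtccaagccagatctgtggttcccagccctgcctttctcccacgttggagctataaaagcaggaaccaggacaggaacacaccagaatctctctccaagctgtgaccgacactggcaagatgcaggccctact
Cpa3, chr3:20242132-20242431, minus strand: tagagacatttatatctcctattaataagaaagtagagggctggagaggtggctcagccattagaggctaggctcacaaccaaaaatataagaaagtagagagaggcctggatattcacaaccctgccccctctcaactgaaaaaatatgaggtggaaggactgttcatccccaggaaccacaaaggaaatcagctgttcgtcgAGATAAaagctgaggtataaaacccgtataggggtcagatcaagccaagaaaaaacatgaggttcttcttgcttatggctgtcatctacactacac
Mcpt8, chr14:56085148-56085447, minus strand: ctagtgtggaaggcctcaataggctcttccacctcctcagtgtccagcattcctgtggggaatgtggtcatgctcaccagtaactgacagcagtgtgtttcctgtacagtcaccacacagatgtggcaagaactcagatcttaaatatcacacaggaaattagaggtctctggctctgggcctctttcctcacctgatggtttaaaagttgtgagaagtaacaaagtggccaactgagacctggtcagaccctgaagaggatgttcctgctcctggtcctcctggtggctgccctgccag

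Such a GATA word was found 79 bases before the start of Cma1, 103 before that of Mcpt4 and 46 before that of Cpa3, and in none of the 300 bases of Mcpt8. RefSeq also lists predicted transcripts that start 302 bases further upstream for Mcpt8 and 28 for Cpa3, and the 300 bases around those starts held 0 and 1 such words. Of 7 promoters in the table for members (Mcpt1 and Tpsg1 included, the second with 2 starts), 6 held such a word, and of all 32817 promoters 29.8% did. The word TATAAA stood 31 bases before the start of Cpa3, 28 before that of Mcpt1 and 32 before that of Mcpt4, and 13.6% of all promoters held it on either strand. The E-box words CACGTG, with CATGTG and its reverse complement CACATG, were in 20.4% of all promoters and in 0 of these 7, and the looser CANNTG was in 72.3% of all promoters and in 5 of these 7. No table entry matched Mcpt2, Tpsb2 or Tpsab1. A match is a description of the letters, and a missing word says only that it is not in this window.

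The HP libraries held 20982 cells, from 560 in the first E16.5 library (replicate 1) to 6208 at P0, and 13974733 to 127489333 UMIs. The mast codes took 259 cells in E16.5 replicate 1 (46.3% of the library), 1804 in replicate 2 (38.0%), 162 at E18.5 (4.66%), 534 at P0 (8.60%) and 321 in adult cells (5.36%). Their median depth was 25921, 16625, 25714.5, 1498 and 719 UMIs per cell. The mast codes at P0 and in the adult thus held far shallower cells than those before, and at P0 the shallow ones were code Mast4, with a median of 564.5 UMIs against 12625.5 in Mast3.

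Cell barcodes that occur in more than 1 library were counted before the levels were read. The adult library shared 330 barcodes with E16.5 replicate 1, which has only 560 cells, the P0 library shared 153 with it and the E18.5 library 46. Later libraries also shared barcodes among themselves, 375 between E18.5 and adult, 225 between P0 and adult and 83 between E18.5 and P0. E16.5 replicate 2 shared between 1 and 8 barcodes with any other HP library. In the adult mast codes 291 of 321 cells (90.7%) had a barcode that another HP library also held, 255 of them one of E16.5 replicate 1. In the adult code Mast4i it was 194 of 201 cells, in Mast4ii 97 of 120, in P0 Mast4 208 of 274 and in the E18.5 code Mast/Bas 40 of 41. For P0 Mast4, 206 of the 274 barcodes also stood in the adult library. Few were shared in E18.5 Mast3 (7 of 162 cells), P0 Mast3 (1 of 260), the mast codes of E16.5 replicate 2 (9 of 1804) and the adult eosinophil/basophil code Eos/Bas4 (0 of 176). Sharing was not limited to shallow cells, since in E16.5 replicate 1 it held for 57 of 106 cells of Mast1, 68 of 85 of Mast2i and 54 of 68 of Mast2ii. In the E18.5 library it held for 81 of 205 cells of EryP/MegP and 37 of 157 of Eos/Bas2, nearly all with the adult library.

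The depth of most cells was a near fixed share of that of the E16.5 replicate 1 cell with the same barcode, and in the codes that held most pairs the protease content was close to it too. An adult cell had a median of 2.12% of the UMIs of the E16.5 replicate 1 cell with its barcode (interquartile range 2.05% to 2.19%, 330 pairs), a P0 cell 1.44% (1.40% to 1.51%, 153 pairs) and an E18.5 cell 0.953% (0.917% to 1.01%, 46 pairs). In the 24 E18.5 pairs with code Mast/Bas the proteases made up 4.91% of the E18.5 UMIs and 4.20% of the E16.5 ones, in the 14 with UD2i 1.61% and 1.71%. Over all 46 pairs they made up 1.45% and 2.95%, with r = 0.934 across pairs. That pooled share includes a cell of MyP1 with 27352 UMIs, 173% of its partner's, and 0.00731% proteases. In the 255 pairs with an adult mast code, the 9 proteases made up 4.07% of the adult UMIs and 4.14% of the E16.5 UMIs, and the share per cell correlated across pairs with r = 0.910. In the 150 pairs of P0 Mast4 it was 3.06% and 3.12%, with r = 0.958. Cma1 in the adult cells of these pairs was at 21757 UMIs per 1000000 UMIs (CPM) and in their E16.5 partners at 21400. Tpsb2 was at 7434 and 7255 CPM. Of the 181 Mast4i cells so paired, 172 had a partner in Mast1, Mast2i or Mast2ii, and of the 74 Mast4ii cells 70 had one in the mixed code Mono/Mast. Pairs among later libraries whose barcode E16.5 replicate 1 did not hold had such ratios too. In 331 of these between E18.5 and adult the adult cell had a median of 0.846% of the UMIs of the E18.5 cell (interquartile range 0.813% to 0.909%), at median depths of 484 and 53903 UMIs. The 33 of these pairs with an adult mast code went the other way. There the adult cell had a median of 219% of the E18.5 UMIs (interquartile range 211% to 227%), at depths of 1408 and 694 UMIs. Proteases made up 2.58% of those adult and 1.47% of those E18.5 UMIs. In the 30 such pairs of P0 and adult with an adult mast code both cells were shallow, and the proteases made up 2.58% of the P0 and 2.60% of the adult UMIs. What made barcodes coincide was not tested. Whether UMIs of these cells are molecules of cells of another library was not tested either, so the levels of the adult mast codes, P0 Mast4 and Mast/Bas with all cells cannot be read as levels of those stages alone. Levels in the mast codes are therefore also given for the cells whose barcode no other HP library held, called unshared here. Unshared cells numbered 80, 1795, 155, 325 and 30 in the mast codes, in the order of the libraries above. In E16.5 replicate 1 the unshared mast cells were shallower, with a median of 17764 UMIs against 25921 with all cells.

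**Figure D1:**
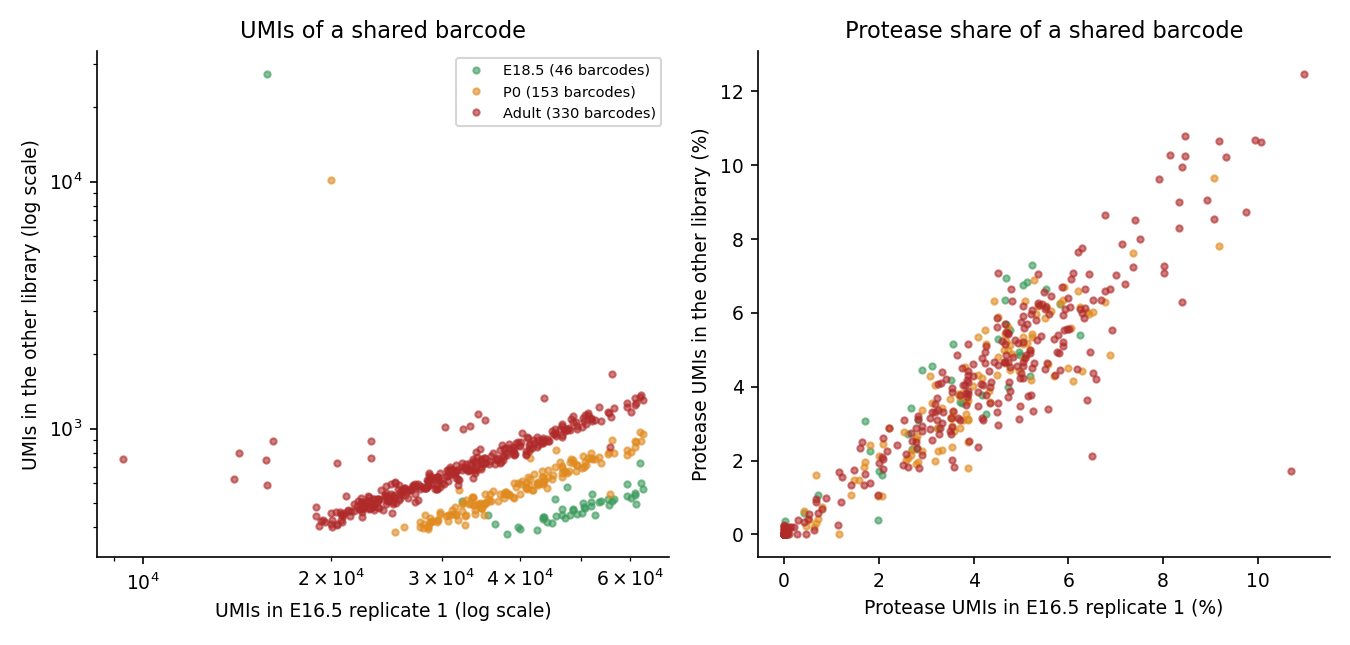
Barcodes found both in E16.5 replicate 1 and in a later HP library, 1 point per barcode (330 adult, 153 P0, 46 E18.5). Left, UMIs in the later library (vertical, log scale) against UMIs in E16.5 replicate 1 (horizontal, log scale), where the points of each later library follow a line at a median of 2.12%, 1.44% and 0.953% of the E16.5 depth. Right, the 9 proteases in percent of UMIs in both libraries, which rise together.

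Of all UMIs in the mast codes, the 9 proteases made up 5.28% in E16.5 replicate 1 and 6.78% in replicate 2 (mean 6.03% ± 1.05 SD, n = 2). They made up 1.71% in E18.5 cells, 2.47% at P0 and 3.42% in adult cells. Counting intervals were narrow (1.70% to 1.73% at E18.5) and cover counting error only. Among unshared cells the shares were 7.43%, 6.78%, 1.73%, 2.46% and, from 224 protease UMIs in 30 adult cells, 0.750% (95% Poisson interval 0.655% to 0.855%). Both E16.5 libraries lay above each later one with either set of cells. The adult value moved most, and it dropped from second to last place among the stages. Of the 30 unshared adult cells 7 were of Mast4i (4894 UMIs) and 23 of Mast4ii (24976 UMIs), a mixed code by its markers. Cma1 was at 16755 CPM in these Mast4i cells (82 UMIs) and at 2202 CPM in these Mast4ii cells (55 UMIs). The adult levels of unshared cells, here and below, thus depend on which code was left.

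**Figure D2:**
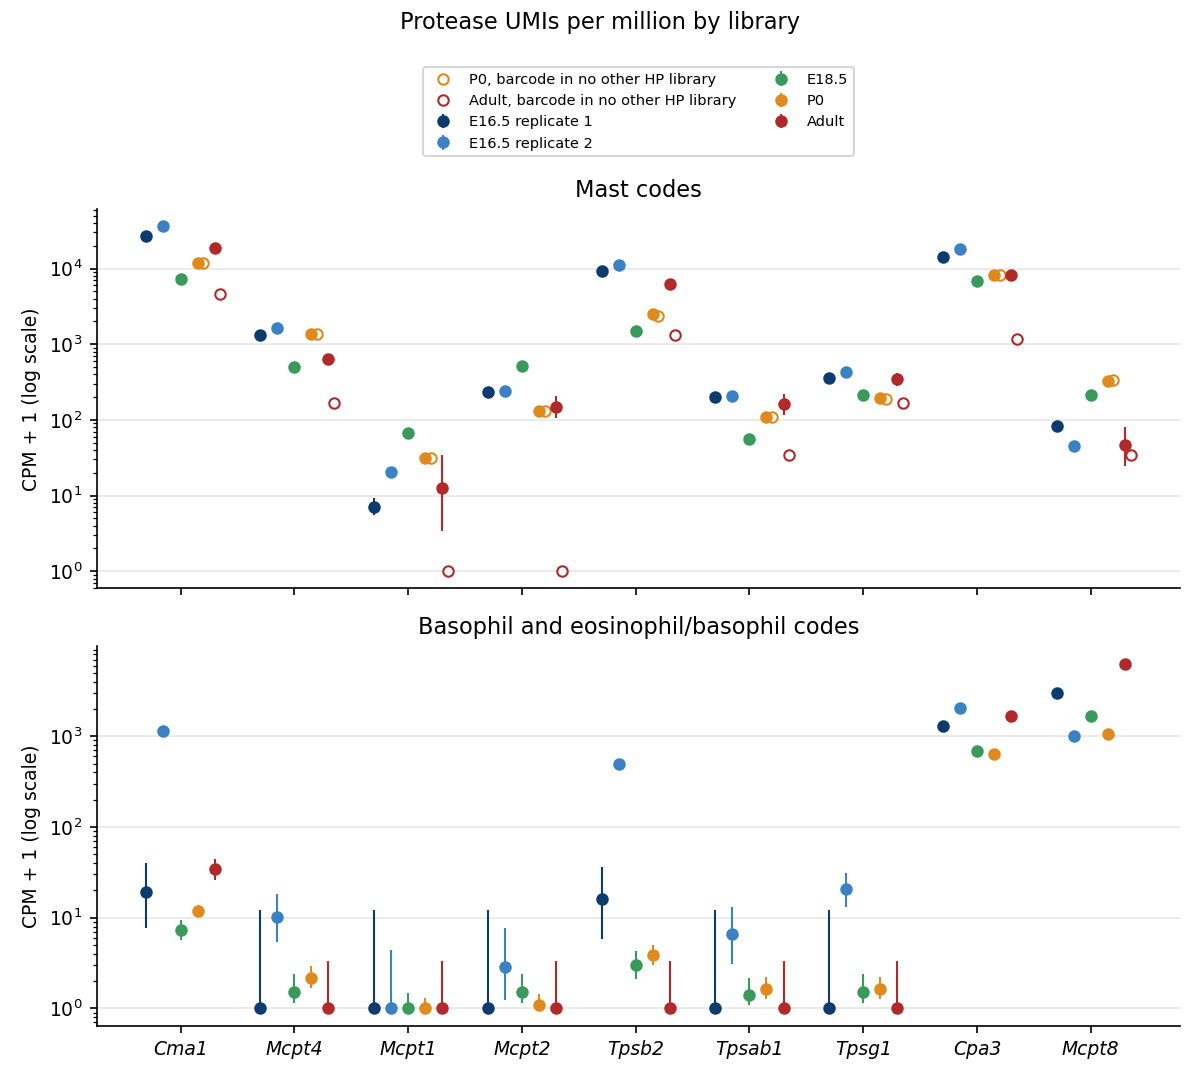
CPM + 1 (vertical, log scale) of each protease in the mast codes (top) and in the basophil and eosinophil/basophil codes (bottom), 1 filled point per HP library with its exact Poisson 95% interval. Open points are the P0 and adult cells whose barcode no other HP library held. In the top panel the adult open points for Cma1 and Cpa3 lie below every filled point of these genes. The adult open points pool 7 cells of Mast4i and 23 of the mixed code Mast4ii. In the bottom panel Cpa3 and Mcpt8 stand above the other 7 genes in each library but E16.5 replicate 2, where Cma1 (1144 CPM) lies slightly above Mcpt8 (998 CPM).

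Cma1, a chymase gene known from connective tissue mast cells, had the most UMIs of the 9 in the mast codes of each library. It was at 27133 and 35927 CPM in the E16.5 libraries, 7308 in E18.5 cells, 11887 at P0 and 18418 in adult cells. Unshared cells gave 38284, 35935, 7403, 11772 and 4587 CPM. Both E16.5 libraries lay above the later ones. With so few libraries such an order, here and for the genes below, is a description and not a test. Levels of different genes are compared here as 3′ UMI counts, in which a transcript is counted once whatever its length. Of the last 400 bases of the Cma1 transcript, 10.6% of 60-base windows also occur in the transcript Gm48934, so part of its reads may have been left uncounted.

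Mcpt4, also a chymase gene known from connective tissue mast cells, was at 1308 and 1618 CPM at E16.5, 494 in E18.5 cells, 1360 at P0 and 631 in adult cells. The P0 value lay between the E16.5 libraries, so the stages overlapped with all cells. Unshared cells gave 2305, 1620, 423, 1370 and 167 CPM, the last from 5 UMIs, and there both E16.5 libraries lay above the later ones. Mcpt4 shares 12.0% of its 3′ windows with Cma2. It was found in fewer cells than Cma1: after thinning each cell to 1000 UMIs, 29.7% and 26.3% of mast cells at E16.5 had a Mcpt4 UMI and 98.8% and 98.7% had a Cma1 UMI. Of the thinned mast-code cells with Mcpt4, 77 of 77 and 474 of 474 at E16.5, 20 of 20 at E18.5, 70 of 71 at P0 and 13 of 13 in the adult also had Cma1. Among unshared cells it was 24 of 24, 472 of 472, 17 of 17, 66 of 66 and, in the adult, 1 of 1.

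The chymases known from mucosal mast cells were low and carried by few cells. Mcpt2 was at 235 and 241 CPM at E16.5, 515 in E18.5 cells, 128 at P0 and 148 in adult cells. Mcpt1 was at 6.11, 19.7, 66.9, 30.2 and 11.4 CPM in the same order. The high E18.5 values came from 1 cell of Mast3 with 15622 UMIs, which held 1596 of the 2165 Mcpt2 UMIs and 242 of the 281 Mcpt1 UMIs. That cell had 77 UMIs of Cma1, 84 of Cpa3 and 0 of Tpsb2, Tpsab1, Tpsg1, Mcpt4 and Mcpt8. Without it, E18.5 Mcpt2 was at 136 CPM and Mcpt1 at 9.32 CPM, within the range of the other libraries. Unshared cells gave Mcpt2 at 77.6, 242, 549 and 130 CPM and Mcpt1 at 3.59, 19.8, 71.9 and 30.8 CPM in the libraries before the adult. Unshared adult cells had 0 UMIs of either gene among 29870 in all, too few to read a level of this size. In E16.5 replicate 1, 1 cell held 735 of 1732 Mcpt2 UMIs, and without it the level was 136 CPM. In replicate 2, the 91 cells with the most Mcpt2 (5% of cells) held 78.6% of its UMIs, and the 91 with the most Cma1 held 10.0% of Cma1 UMIs.

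Tpsb2, the main tryptase, was at 9275 and 11105 CPM at E16.5, 1498 in E18.5 cells, 2478 at P0 and 6173 in adult cells. Unshared cells gave 13923, 11115, 1493, 2384 and 1339 CPM, the last from 40 UMIs. Tpsab1, the second tryptase of the locus, was at 201 and 207 CPM at E16.5, 55.0 in E18.5 cells, 109 at P0 and 160 in adult cells, the last from 42 UMIs. Tpsg1, a tryptase with a membrane anchor, was at 358 and 424 CPM at E16.5, 215 in E18.5 cells, 193 at P0 and 342 in adult cells (90 UMIs). For Tpsb2, Tpsab1 and Tpsg1 both E16.5 libraries lay above the later ones with all cells, but the adult intervals of Tpsab1 (115 to 216 CPM) and Tpsg1 (275 to 421 CPM) reached into their range. Unshared cells gave Tpsab1 at 233, 208, 51.4, 109 and 33.5 CPM and Tpsg1 at 264, 423, 227, 190 and 167 CPM, the adult values from 1 and 5 UMIs.

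The UMIs of Cma1 were 2.93 and 3.24 times those of Tpsb2 in the E16.5 mast codes, and 4.88 and 4.80 times at E18.5 and P0. The single E16.5 codes were not alike in this ratio. In replicate 2 Cma1 was at 44835 CPM and Tpsb2 at 15208 CPM in Mast1, and at 27083 and 7035 CPM in Mast2ii. The adult mast codes had 2.98 with all cells, of which 255 of 321 share a barcode with E16.5 replicate 1. Cma1 over Cpa3 was 1.90 and 1.98 at E16.5, 1.08 in E18.5 cells, 1.45 at P0 and 2.23 in adult cells. Unshared cells had 2.75, 3.23, 4.96, 4.94 and 3.42 Cma1 UMIs per Tpsb2 UMI and 2.00, 1.98, 1.08, 1.43 and 3.91 per Cpa3 UMI, the adult ratios from 137 Cma1, 40 Tpsb2 and 35 Cpa3 UMIs. The mix of proteases thus differed between the E16.5 and the E18.5 and P0 mast codes by more than between both E16.5 libraries, with 1 library per later stage and no test. The codes differ between these stages too, and their part in the ratio was not tested.

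Cpa3, the carboxypeptidase, was at 14249 and 18171 CPM at E16.5, 6764 in E18.5 cells, 8186 at P0 and 8253 in adult cells. Unshared cells gave 19147, 18157, 6861, 8245 and 1172 CPM, the last from 35 UMIs. Both E16.5 libraries lay above all later ones with either set of cells. It was the broadest of the 9 in mast codes, with a UMI after thinning in 100% and 99.6% of cells at E16.5, 83.2% in E18.5 cells, 85.4% at P0 and 87.0% in adult cells (60 of the 69 adult cells that were deep enough; 252 adult and 247 P0 cells were left out as too shallow). Among unshared cells it was 2 of 8 in the adult and 85.6% at P0. Over lymphoid codes of the same libraries the shares were 6.52%, 17.0%, 1.84%, 2.42% and 0.508%.

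Mcpt8, the basophil protease, had a different order. It was at 80.9 and 43.6 CPM in the E16.5 mast codes, 213 in E18.5 cells, 324 at P0 and 45.6 in adult cells, the last from 12 UMIs. E18.5 and P0 lay above both E16.5 libraries and the adult did not. Unshared cells gave 33.0, 43.7, 216, 333 and 33.5 CPM, the last from 1 UMI. Across Mast3 cells the Spearman correlation of Mcpt8 with Cma1 was 0.08 at E18.5 (161 cells) and 0.07 at P0 (260 cells), where Cma1 and Tpsb2 had 0.75 and 0.82. These correlations were taken after thinning and share each cell's total. Mcpt8 was seen in only 16 of the 161 thinned E18.5 cells. Mcpt4, seen in 20 of them, had a correlation of 0.40 with Cma1. Of the thinned mast cells with Mcpt8, 19 of 19 and 77 of 77 at E16.5, 13 of 16 at E18.5 and 44 of 48 at P0 had Cma1. Of all thinned mast cells it was 256 of 259 and 1779 of 1803, 107 of 161 and 223 of 287. At E16.5 these counts thus say little about cells with Mcpt8 in particular.

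Within E16.5 the codes stood in one order in both libraries for 6 of the 9 members when all cells were counted. Cma1 was at 35583, 23751 and 21744 CPM in Mast1, Mast2i and Mast2ii of replicate 1, and at 44835, 32213 and 27083 in replicate 2. Tpsb2, Cpa3 and Mcpt4 had the same order in both. Tpsg1 and Mcpt8 had the reverse order in both, with Tpsg1 at 287, 340 and 475 CPM in replicate 1 and 328, 431 and 566 in replicate 2. Mcpt1, Mcpt2 and Tpsab1 had no order that both libraries shared, with Mcpt2 at 148, 413 and 79.0 CPM in replicate 1 and 267, 260 and 174 in replicate 2. In unshared cells the order was unchanged in replicate 2 for these 6. In replicate 1, where 49, 17 and 14 unshared cells remained, it held only for Tpsg1 (179, 305 and 483 CPM) among the 6, with Cma1 at 42757, 29560 and 35393 CPM and Mcpt8 at 32.2, 54.4 and 7.91 CPM. The codes were drawn from these cells with all genes, proteases included, so this order is a description.

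**Figure D3:**
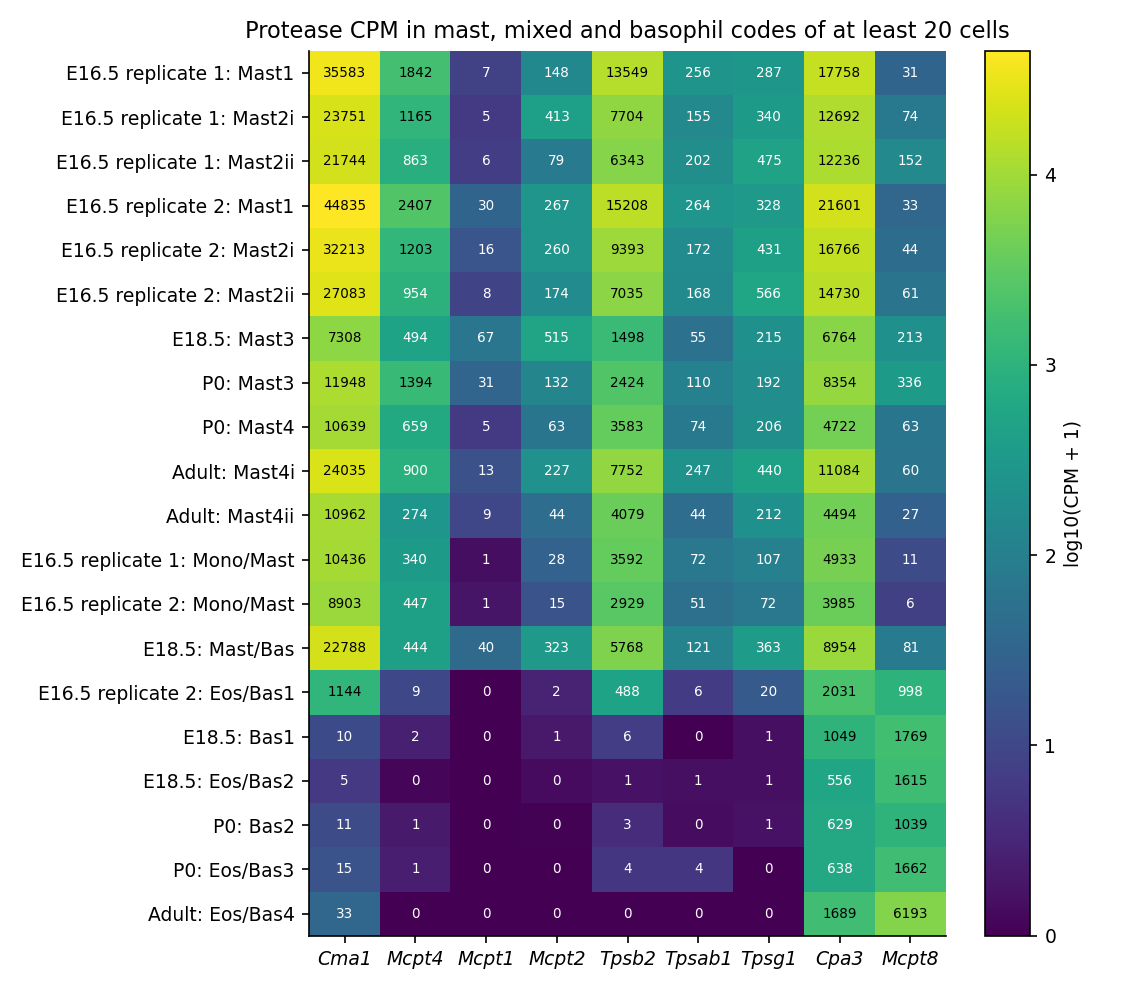
CPM of each protease (numbers, with color for log10(CPM + 1)) in the mast, mixed and basophil codes of at least 20 cells, by library. The E16.5 codes Mast1, Mast2i and Mast2ii run from high to low for Cma1 and from low to high for Tpsg1 in both libraries when all cells are counted, as they are here, and the basophil codes at E18.5 and later hold little but Cpa3 and Mcpt8.

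The spread between cells was wide at E18.5 and P0. The proteases made up a median of 9.17% of a cell's UMIs in Mast1 of E16.5 replicate 2, with 5% of cells under 3.86% and 5% above 15.2%. In E18.5 Mast3 the median was 1.20%, the 5th percentile 0.0108% and the 95th 8.33%. In P0 Mast3 they were 2.20%, 0.0191% and 8.51%. At least 1% of UMIs was reached by 861 of 869 Mast1 cells in replicate 2, by 92 of 162 cells at E18.5 and by 191 of 260 at P0. The 25th percentile was 0.251% at E18.5 and 0.937% at P0. Unshared cells gave nearly the same medians, 1.22% at E18.5 and 2.16% at P0, while P0 Mast4 went from 0.782% (274 cells) to 0 (66 cells).

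**Figure D4:**
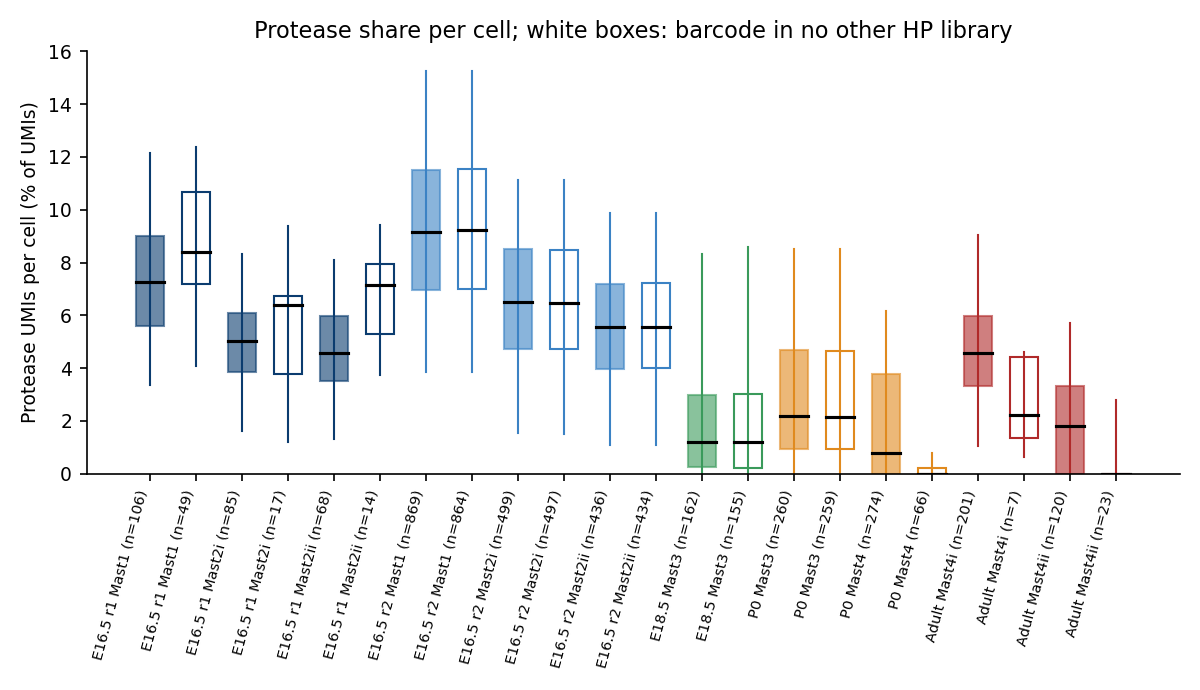
Percent of each cell's UMIs from the 9 proteases (vertical), by library and mast code. Boxes span the 25th to 75th percentile with the median as a black line, and thin lines the 5th to 95th; white boxes hold the cells whose barcode no other HP library held. Mast3 at E18.5 and P0 reaches from near 0 to over 8%, and the adult and P0 Mast4 boxes drop when shared barcodes are left out.

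The Mast3 cells were also set in order by their protease share and read in 3 parts of equal size, which is a cut through a range and not a set of cell types. At P0 the part with the lowest share (0.571% of UMIs), the middle one (2.24%) and the highest (6.07%) had histidine decarboxylase (Hdc) at 1656, 4750 and 6947 CPM and serglycin (Srgn) at 2656, 3532 and 6276 CPM. The 10 cycling genes together were at 1229, 946 and 477 CPM. At E18.5 Hdc was at 585, 2831 and 5744 CPM in the same order, Srgn at 2351, 2935 and 4778, and the cycling genes at 1220, 1895 and 1017. Kit was lowest in the lowest part at both stages (330 and 561 CPM) and was present in all parts. The highest part had the fewest UMIs per cell, a median of 18113 against 26906 and 31953 at E18.5 and 10005 against 16371 and 16589 at P0, and the part of depth in these values was not tested.

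The mast codes were also read against 15 mast markers, 5 of them proteases of the list. The codes were drawn from clusters of all genes, so such counts describe a code and do not test its identity. E16.5 Mast1 of replicate 2 had 6 of the 15 markers among the 10 genes that set it apart most by fold. P0 Mast3 had 5, E18.5 Mast3 had 4 and adult Mast4i had 8, proteases included. Adult Mast4ii had 3 mast markers and 4 macrophage markers (C1qa, C1qb, C1qc and Mrc1) there, so its values count for a mixed code. P0 Mast4 was led by the collagen genes Col3a1, Col2a1 and Col1a1, with 3 mast markers, all proteases. Only 7 of the 201 cells of Mast4i, 23 of the 120 of Mast4ii and 66 of the 274 of P0 Mast4 were unshared. The markers of these codes thus cannot be read as those of their stage alone. Without Mast4ii the adult protease share of mast-code UMIs was 4.48%, with shared barcodes included.

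Codes that name mast cells with another lineage held the same proteases. In Mono/Mast at E16.5 the 10 leading genes held 0 mast markers, and 3 macrophage markers in replicate 1 and 5 in replicate 2. Cma1 was at 10436 and 8903 CPM there, Cpa3 at 4933 and 3985 and Tpsb2 at 3592 and 2929. In the 73 and 140 unshared cells Cma1 was at 2681 and 8748 CPM, Cpa3 at 1370 and 3899 and Tpsb2 at 767 and 2898. These levels came from a minority of cells. In 52 of 161 and 46 of 142 cells the proteases made up at least 1% of UMIs, 5 and 45 of them unshared. Cma1 was at 20732 and 21913 CPM in these cells, a level that the choice by protease share sets in part. The same cells held the complement gene C1qa in 96.2% and 97.8%, at 1001 and 982 CPM, and Kit in 100% and 97.8%. In the 103 and 90 cells under 0.1%, C1qa was at 2634 and 1609 CPM and Kit at 0 and 14.1 CPM. The cells with both kinds of transcript were deeper, with a median of 38361 and 33594 UMIs against 16257 and 22825, and whether some droplets held more than 1 cell was not tested. At E18.5 the code Mast/Bas had Cma1 at 22788 CPM, and its only unshared cell had 0 protease UMIs.

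Basophil and eosinophil/basophil codes held a different pair. Mcpt8 was at 2993 and 998 CPM at E16.5, 1653 in E18.5 cells, 1072 at P0 and 6193 in adult cells, above the mast codes in each library. Cpa3 was at 1294, 2031, 679, 629 and 1689 CPM in the same order. Unshared cells gave Mcpt8 at 1829, 998, 1978, 1065 and 6193 CPM and Cpa3 at 1050, 2031, 829, 630.0 and 1689 CPM, with 8 of 18 cells left in E16.5 replicate 1 and 391 of 431 in the E18.5 codes. Cma1 was at 18.0 and 1144 CPM in the E16.5 libraries, 6.29 in E18.5 cells and 10.8 at P0, with 53 UMIs in the adult code. Tpsb2 was at 488 CPM in E16.5 replicate 2 and between 0 and 15.0 CPM in the other libraries. Cpa3 gave 0.41, 0.59 and 0.27 UMIs per Mcpt8 UMI for E18.5, P0 and adult cells, and 31.7, 25.3 and 181 in the mast codes, the last from 12 Mcpt8 UMIs (35 and 1 UMIs in unshared adult cells). In the E16.5 basophil codes it gave 0.43 and 2.03. Of the thinned basophil-code cells with Mcpt8, 7 of 20 in E16.5 replicate 2 had Cma1, and 0 of 173, 0 of 209 and 0 of 89 for E18.5, P0 and adult cells. At 1000 UMIs per cell this allows shares of up to 1.73%, 1.44% and 3.37% at the later stages, and before thinning these codes did hold Cma1, 47, 138 and 53 UMIs. Of those with Cpa3, 102 of 201, 134 of 242 and 76 of 119 had Mcpt8. The adult code had 6 basophil markers among its 10 leading genes and shared no barcode. Some basophil markers were higher in the mast codes of their library. At E16.5 this held for Prss34 in both libraries (267 CPM against 1118 in mast codes of replicate 2), and for Cd200r3 and Cyp11a1 in replicate 2. Later it held for Gata2 and Lmo4 at E18.5, Fcer1a, Gata2 and Cyp11a1 at P0 and Cyp11a1 in the adult. The other markers of the list were higher in the basophil codes.

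Protease UMIs also stood in T and B lymphoid codes, and free RNA in the droplets as their source was not tested for any member. In T and B lymphoid codes of E16.5 replicate 2 Cma1 was at 843 CPM, Tpsb2 at 279 and Cpa3 at 532 (2322 cells). In replicate 1 they were at 760, 269 and 354 CPM (46 cells), where 4 cells of TCell3 held 726 of 763 Cma1 UMIs, 249 of 270 of Tpsb2 and 306 of 356 of Cpa3. Cma1 was at 33.2 CPM in Bcell1 and 50.6 in TCell5 of that library. At E18.5 they were at 5.82, 1.29 and 42.7 CPM, at P0 at 63.2, 24.8 and 54.8 and in the adult at 1.06, 0.304 and 5.93. The Cma1 level of the E16.5 replicate 2 basophil code was 1144 CPM. Among unshared cells of the lymphoid codes in its library, Cma1 ran from 87.0 CPM in TCell2 to 1755 CPM in TCell4. Cpa3 was at 285 CPM in these TCell2 cells, above Cma1, and at 879 CPM in these TCell4 cells, below it. After thinning, 11.9% of lymphoid cells there had a Cma1 UMI, at a median of 21296 UMIs before thinning, against 98.7% of mast cells at 16625. The lymphoid UMIs of replicate 2 were not even either, and the 233 cells with the most proteases held 87.2% of them.

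Cpa3 and Mcpt8 also stood with little or no Cma1 in cells outside these codes. In T codes Cpa3 was at 137 CPM in E18.5 cells, 175 at P0 and 70.0 in adult cells, where Cma1 was at 4.54, 8.07 and 10.0 CPM, a ratio far from the 1.08 to 2.23 Cma1 per Cpa3 of the mast codes. Unshared T cells gave Cpa3 at 81.0, 175 and 70.7 CPM, and at E18.5 they were 1 cell fewer. B codes had Cpa3 at 13.3, 39.0 and 0.658 CPM. The adult progenitor code HSPC5 (629 cells) had 545 UMIs of Cpa3 (100 CPM) and 75 of Mcpt8, with 0 of Cma1. The adult codes MyP5 and Neu3 had more Mcpt8 (341 and 173 UMIs) than Cpa3 (179 and 88 UMIs), and 0 of Cma1. The P0 monocyte codes Mono1 and Mono2 had both, Cma1 at 668 and 1334 CPM and Cpa3 at 459 and 796, near the ratio of the mast codes. Of all protease UMIs, the mast codes held 82.1% and 91.9% at E16.5, 76.3% in E18.5 cells, 69.7% at P0 and 38.0% in adult cells. In unshared cells the mast codes held 94.9%, 91.9%, 79.0%, 69.0% and, in the adult, 1.52%, where the code Eos/Bas4 held 85.1%.

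Summed counts of the mast codes were then tested between the 2 E16.5 libraries and the 3 later ones as one group (edgeR, quasi-likelihood test, positive log2 values higher at E16.5). The later libraries differ in stage, and their spread counts as error. In the adult sum 255 of 321 cells share a barcode with E16.5 replicate 1. The groups of this test therefore cannot be taken as independent, which holds for all its counts below. Of 10584 genes 646 passed an adjusted p of 0.05 (6.1%), 234 higher at E16.5 (2.21%) and 412 lower (3.89%). Of the 9 members 2 were called by edgeR, both higher at E16.5: Cpa3 (log2 1.21, SE 0.22, adjusted p = 0.0142) and Cma1 (log2 1.45, SE 0.35, adjusted p = 0.0350), each higher in both E16.5 libraries than in all later ones. Tpsb2 (log2 1.71, adjusted p = 0.0570), Tpsab1 (1.18, 0.0860), Tpsg1 (0.83, 0.112) and Mcpt4 (0.95, 0.152) did not pass, and neither did Mcpt8 (-1.58, 0.102), Mcpt1 (-1.50, 0.0976) or Mcpt2 (-0.01, 0.995), all by edgeR. The E18.5 sums of Mcpt1 and Mcpt2 include the 1 cell that held most of their UMIs there. Cma1 lost its call without E18.5 (edgeR adjusted p = 0.0802), without P0 (0.115) and without the adult code Mast4ii (0.0508). Cpa3 lost it without E18.5 (edgeR adjusted p = 0.0668) and without P0 (0.0638). Cma1 also lost it without E16.5 replicate 2 and against P0 or the adult alone, and Cpa3 against E18.5, P0 or the adult alone. Each of these last fits leaves 1 library in a group, with no spread of its own, so no p is given. In sums over cells of this kind fewer cells with a transcript and less of it per cell cannot be told apart.

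Leaving out shared barcodes and with them the adult library, of which 30 cells would remain, gave a test of E16.5 against E18.5 and P0 with 10258 genes, of which 885 passed (8.63%), 412 higher (4.02%) and 473 lower (4.61%). Now 5 of the 9 members were called by edgeR. Tpsb2 (log2 2.92, SE 0.38, edgeR adjusted p = 0.00118), Cma1 (2.18, SE 0.38, 0.00512), Tpsab1 (1.67, SE 0.35, 0.0136) and Cpa3 (1.53, SE 0.33, 0.0151) were higher at E16.5, and Mcpt8 (-2.61, SE 0.30, 0.000725) was lower. The E18.5 cell that held most Mcpt1 and Mcpt2 UMIs was unshared and stayed in this test. Tpsg1 (0.94, edgeR adjusted p = 0.0506), Mcpt4 (1.35, 0.105), Mcpt1 (-1.63, 0.0621) and Mcpt2 (-0.84, 0.380) did not pass. This set of cells was chosen after the shared barcodes were seen. It also raised the protease content of E16.5 replicate 1. There the median share per cell was 8.41%, 6.38% and 7.15% in Mast1, Mast2i and Mast2ii, against 7.28%, 5.03% and 4.58% with all cells. With all mast-code cells and only the adult library left out, Tpsb2 was at log2 2.53 (edgeR adjusted p = 0.000392), Mcpt8 at -1.94 (0.00189) and Tpsab1 at 1.49 (0.00562).

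**Figure D5:**
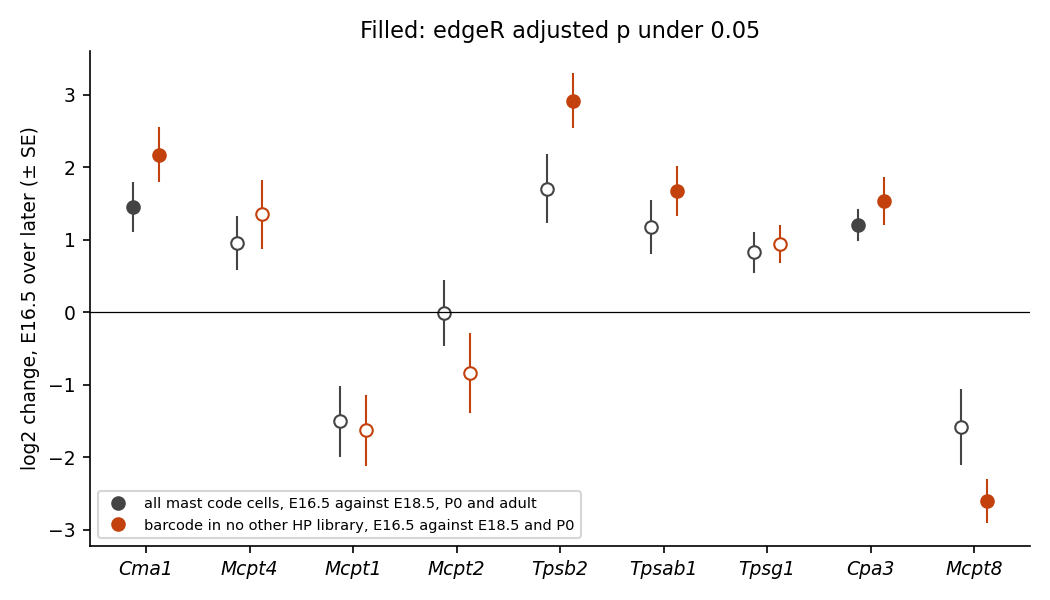
Log2 change of each protease between E16.5 and later mast codes (vertical, ± SE), positive where E16.5 was higher, with all cells and all 5 libraries (grey) and with unshared cells of E16.5, E18.5 and P0 (orange). Filled points passed an edgeR adjusted p of 0.05: 2 of 9 in the first test, and 5 of 9 in the second, where Mcpt8 was the only called member lower at E16.5. In both tests most E18.5 UMIs of Mcpt1 and Mcpt2 came from 1 cell.

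Genes that pack and process the proteases were read from a list of 20 granule genes. Of these 4 were called higher at E16.5 and 0 lower (2.21% of all genes were called higher, and the median log2 was 0.53 against -0.01 over all genes tested): Srgn (log2 0.94, SE 0.21, edgeR adjusted p = 0.0292), which anchors the proteases, Ndst2 (0.89, SE 0.23, 0.0439), an enzyme of heparin synthesis, Tph1 (1.32, SE 0.29, 0.0276), which makes serotonin, and the inhibitor of serine proteases Serpinb1a (1.26, SE 0.26, 0.0214). With unshared cells of E16.5, E18.5 and P0 8 were called higher and 0 lower (4.02% of all genes were called higher), Ctsc among them (log2 0.94, edgeR adjusted p = 0.0478), the dipeptidyl peptidase that activates granule proteases. The histamine enzyme Hdc was not called in either (log2 0.37 and 0.52). Of 19 receptor and transcription factor genes tested, edgeR called 0 with all cells (DESeq2 called 1) and 2 with unshared cells, Fcer1g and Cd63, both higher at E16.5. At an unadjusted edgeR p under 0.05 there were 4 higher and 3 lower with all cells, and 7 higher and 3 lower with unshared cells. Over all genes 2451 of 10584 and 2538 of 10258 had such a p in these tests. Kit (log2 -0.09, SE 0.27) and Gata2 (0.28, SE 0.27) were not called. Of 10 cycling genes edgeR called 0 in either test, with medians of 0.09 and 0.07 (DESeq2 called 0 with all cells). At an unadjusted edgeR p under 0.05 there were 0 with all cells and 2 with unshared cells, both lower at E16.5, beside the same counts over all genes.

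Among 12 other serine proteases 7 were tested, with 1 called higher at E16.5 and 3 lower (2.21% and 3.89% of all genes). Cma2, a neighbouring chymase gene, was higher (log2 1.07, SE 0.22, edgeR adjusted p = 0.0219). Granzyme B (Gzmb), best known from killer lymphocytes, was lower (log2 -5.25, SE 1.07, edgeR adjusted p = 0.0209). It was at 13.4 and 14.4 CPM in the E16.5 mast codes, 688 in E18.5 cells, 1040 at P0 and 7.60 in adult cells, from 2 UMIs, against 46.8 and 24.4 CPM in lymphoid codes at E18.5 and P0. Gzmb was also at 696 and 500 CPM in the E16.5 basophil codes and at 2.68 and 1.10 CPM in those at E18.5 and P0. Prss34, a protease known from basophils, was at 864 and 1118 CPM in the E16.5 mast codes, 65.0 in E18.5 cells, 145 at P0 and 536 in adult cells. It passed with unshared cells (log2 3.65, SE 0.39, edgeR adjusted p = 0.000430) and not with all cells (0.0667). The neutrophil proteases Elane and Prtn3 were called lower at E16.5 in both tests, and their levels in the mast codes (Elane 3.09, 29.2 and 156 CPM for E18.5, P0 and adult cells) were near those in lymphoid codes of the same libraries (6.03, 24.8 and 122 CPM).

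Over 81 groups of a library and a code with at least 20 cells, the pattern of each member was set against 11553 genes by Pearson's r of log2(CPM + 1). Cma1 was most like Tpsb2 (r = 0.981), Smpx (0.941) and Mcpt4 (0.938), and Tpsb2 was most like Cma1, Smpx (0.945) and Gnai1 (0.943). Mcpt4 was nearest to Tph1 (0.960), Tpsab1 to Tph1 (0.972), Tpsg1 to Smpx (0.979), Mcpt2 to Smpx (0.940) and Mcpt1 to Mcpt2 (0.891). Cpa3 was nearest to Cyp11a1 (0.910), Gm11697 (0.894) and Rab27b (0.889), and none of the 8 other members was among its 3. Mcpt8 was nearest to Ms4a2 (0.852), the β chain of the IgE receptor, then Stx3 (0.805) and Ldhc (0.772). The groups share libraries, so these values describe and carry no p. They hold all cells, those with shared barcodes included. Of 18 likeness values under other settings 2 moved.

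Antibody tags gave a readout apart from mRNA. In E16.5 replicate 2, the only HP library with the wide panel, the median count of the CD16/32 tag, for the low-affinity IgG receptors, was 27 in mast codes, 12 in the basophil code and 1 in lymphoid codes. The tag for the IL-33 receptor had a median of 3, 1 and 1, with a count in 87.3%, 55.7% and 54.1% of cells. The T cell antigen CD90.2 was at 2 in mast and basophil codes and 69 in lymphoid codes. The Mono/Mast code had a median of 20.5 for CD16/32 and 95 for CD90.2. CD48 was at 58, 2, 140, 37 and 33 in the mast codes over the 5 libraries, and library and panel cannot be told apart in such counts.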

How the data were processed

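mRNA and antibody tags were counted in single cells of 5 HP libraries, each a pool of mice. The authors aligned 3′ reads to mm10 with Cell Ranger 3.1.0, aggregated the libraries with default settings, which subsample reads toward equal depth, and filtered cells in Seurat 3.1.5 (R 4.0). The deposited values are whole-number UMI counts and antibody counts, not normalized. The mitochondrial share per cell was deposited as a fraction by the authors. Annotation codes were taken as deposited. No doublet caller was run here; the authors had removed cells with the most UMIs and genes.

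Mast codes were summed per library and E16.5 was tested against the later libraries by edgeR 4.0.16 (quasi-likelihood, TMM, filterByExpr, R 4.3.3), with Benjamini-Hochberg adjustment over all genes tested; p-values measure the spread between libraries. DESeq2 1.42.0 was an alternative. The edgeR step was tested on simulated data. Levels are UMIs per 1000000 with exact Poisson intervals (95%). Shares of cells used cells thinned to 1000 UMIs with Clopper-Pearson intervals, and a count of 0 allows 3 counts. Intervals and limits cover counting error only. Python 3.11.15 was used for the rest.

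The members and lists were chosen with earlier results of these data known. Named genes were the 9 members, the 3 genes most like each over groups of at least 20 cells (genes of at least 500 UMIs), the 4 largest called changes per list with genes of known granule roles, and markers a check needed. Genes are located by GENCODE vM21 (GRCm38).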

Additional observations from a re-analysis of the deposited data

Results flagged for a closer look

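No group held enough libraries for a test of single libraries that stand apart. Protease UMIs were also counted in the stromal libraries, which the comparisons above do not use and which have no control samples. The 9 genes together had 36 UMIs at E16.5 (0.308 per 1000000 UMIs, in 17 of 8226 cells), 30 in E18.5 cells (0.267, in 26 of 6642), 54 at P0 (0.277, in 30 of 14084) and 42 in adult cells (0.457, in 9 of 6267), each above the 3 counts that a count of 0 allows. Cma1 gave 23, 19, 19 and 26 of these UMIs.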

How the results depend on the processing

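No paired analysis was possible because the HP libraries of the stages compared share no more than 1 replicate number, and the same-numbered mRNA and antibody libraries are the same cells. The number of genes called between E16.5 and later mast codes (646) went to 1659 with no filter on low counts and 1186 with cells of at least 1000 UMIs. It was 1626 with mast codes whose median cell has at least 1000 UMIs, and 2281 with cells chosen by non-protease mast genes. Of the cells so chosen 259 of 352 and 1794 of 2041 at E16.5 stood in mast codes. At the later stages most did not, with 160 of 735 in mast codes at E18.5, 277 of 1429 at P0 and 39 of 250 in the adult. It was 976, 1238 and 271 against E18.5, P0 or the adult alone, and ran from 28 (without E16.5 replicate 2) to 1626 (without the adult) with 1 library left out. The 3 settings chosen after seeing the data gave 998 (barcodes in 1 HP library), 975 (Mast4ii left out) and 885 (E18.5 and P0, unshared). DESeq2 called 449.

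The protease share of mast-code UMIs moved at E16.5 to 7.10% with unshared cells. At E18.5 (1.71%) it was 0.475% with cells chosen by non-protease genes, 1.726% with mixed codes, 1.730% unshared and 2.18% as a mean over cells. At P0 (2.47%) it was 2.49% in codes with a median of at least 1000 UMIs, 0.416% with non-protease genes, 2.56% as a mean over cells and 2.45% with the lymphoid share subtracted. In the adult (3.42%) it was 2.59% in cells of at least 1000 UMIs, 0.501% with non-protease genes, 0.750% unshared, 4.48% without Mast4ii and 3.69% as a mean over cells. At these later stages most cells chosen by non-protease genes stood outside the mast codes, so those shares are not of mast-code cells.

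Of 180 log2 changes of members under other settings 9 turned sign, 48 newly passed and 11 no longer did. Mcpt1 was at 0.83 with non-protease genes and 0.31 against the adult alone, and Mcpt8 at 0.52 against the adult alone. Mcpt2 was at 2.22 with non-protease genes, 0.085 in cells at or under the 95th percentile of UMIs, 1.03 against P0 alone and 0.76 against the adult alone, and from -0.43 (without P0) to 0.87 (without E18.5) with 1 library left out, with 0.0065 without E16.5 replicate 1. With non-protease genes most cells of the later stages came from outside the mast codes. In the E18.5 sum 1 cell of Mast3 held 1596 of 2165 Mcpt2 UMIs and 242 of 281 Mcpt1 UMIs. The cause of the sign changes was not tested. With total UMIs in place of TMM the median of all genes shifted to -0.18. Of 135 shares of cells with a UMI of a member 80 moved by more than their interval with cells not thinned or thinned to 500 or 2000 UMIs.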
